A study of Homo sapiens with 24 samples.

Results

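The data compared here were the messenger RNAs sedimenting with heavy polysomes and the total RNA of unperturbed A2058 cells, a human melanoma line. Both fractions came from cells transfected with a control siRNA (siCTRL) and left without drug (NT), and each fraction had 3 libraries, so 6 of the 24 libraries of the series were used. The other 18 libraries repeated the 2 fractions in siCTRL cells given hydroxyurea (HU) and in cells transfected with an siRNA against LSM14A (siLSM14A), with and without HU. All cells, controls included, were thus transfected with an siRNA, and cycloheximide was added before lysis to hold ribosomes on the mRNA. Per the study's methods, lysates were spun through a sucrose gradient, and RNA was taken from the heaviest fractions and from the unfractionated input. The labels do not say whether the 3 replicates came from separate cultures, so the p-values measure the spread between these libraries, which may be technical. All libraries went through selection for poly(A) tails.

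An mRNA carrying several ribosomes sediments as a polysome, and the more ribosomes it carries, the deeper it runs in the gradient. A message that is short, that is seldom initiated, that is kept in the nucleus or that is translated elsewhere, as in mitochondria, is therefore poorly represented in the heaviest fractions relative to the input. Initiation of some mRNAs is known to depend on their 5′ end: terminal oligopyrimidine (TOP) tracts on mRNAs of the translation machinery respond to growth signalling, iron-responsive elements (IREs) bind iron regulatory proteins, and upstream reading frames engage ribosomes before the main coding sequence. Values below are CPM, read counts scaled to a common library size, after TMM scaling, and differences are log2 of polysomal over total RNA with their standard errors. A positive difference means a larger share of the polysomal library than of the total library, not more molecules per cell.

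The 6 libraries held between 24789280 and 44897501 counts in the deposited table, of which 99.6% fell on protein-coding genes. That table lists 20345 genes, of which 19086 are protein-coding. The share therefore reflects the genes listed, and the totals cover only those genes. Total RNA replicates correlated with each other at 0.994 to 0.996 (Pearson, log2 CPM over genes tested) and polysomal replicates at 0.976 to 0.991. Polysomal replicate 3 stood apart: it correlated with the total RNA libraries at 0.966 to 0.970, against 0.928 to 0.945 for polysomal replicates 1 and 2. Among the genes called, its median absolute log2 difference from the total RNA mean was 0.59, against 0.92 and 0.90 for replicates 1 and 2. Melanoma markers were present, with SOX10 at 581, 609 and 604 CPM and PMEL at 368, 319 and 365 CPM in total RNA. Others were low there, with MLANA at 5.55, 7.88 and 9.88 CPM, TYRP1 at 4.21, 3.96 and 5.55 CPM and SOX9 at 0.98, 0.98 and 1.28 CPM. KRT5 and CD3E had no count in any of the 6 libraries, and EPCAM, CDH1 and PTPRC had at most 7. The keratinocyte marker KRT14 had 40 to 125 counts, and the endothelial marker VWF had 14 to 32. Of the fibroblast markers, LUM reached 33.7 to 41.6 CPM in total RNA, while COL1A1 and DCN stayed at 1.09 to 1.97 CPM.

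Most of the transcriptome was distributed unequally between heavy polysomes and total RNA. Of 12431 protein-coding genes tested, 3907 were higher in polysomes (31.4% of genes tested) and 4020 were lower (32.3%), 63.8% in either direction, at an adjusted p under 0.05 in the edgeR quasi-likelihood test. Differences beyond 1 on the log2 scale were called for 1064 genes upward (8.56%) and 1582 downward (12.7%). The 3 polysomal values did not overlap the 3 total values for 8907 genes (71.7%). Scaling by library totals alone gave 2517 higher and 5624 lower genes, and moved the median of all genes from −0.03 to −0.33, so every direction below is relative to the other genes of the library. Leaving out polysomal replicate 3 gave 4568 higher and 4748 lower genes.

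The 12 largest enrichments among well-expressed genes ran from 2.12 to 2.41, a 4.35- to 5.33-fold higher share in polysomes. These genes and the 12 deepest depletions were chosen among called genes whose groups did not overlap, so the lack of overlap in them is no finding. CAD, the multifunctional enzyme that starts pyrimidine synthesis, had 114, 94.8 and 104 CPM in total RNA and 721, 575 and 365 CPM in polysomal RNA. Its difference was 2.41 ± 0.23 (adjusted p = 0.000262). UBA7, the activating enzyme for the ubiquitin-like protein ISG15, had 7.73, 7.22 and 8.54 CPM in total RNA and 44.7, 47.0 and 33.4 CPM in polysomes, a difference of 2.41 ± 0.16. LAMB2, a laminin chain of basement membranes, rose from 110, 105 and 109 CPM to 671, 632 and 415 CPM, a difference of 2.41 ± 0.18. The others were MVP, the major vault protein (2.35 ± 0.12), DDB1, an adaptor of CUL4 ubiquitin ligases (2.33 ± 0.13), PC, pyruvate carboxylase (2.33 ± 0.14), and CSPG4, the melanoma-associated chondroitin sulphate proteoglycan (2.25 ± 0.19). RRP12, a factor of ribosome maturation, gave 2.24 ± 0.18, and TLN1, the integrin-linking protein talin, gave 2.18 ± 0.19. PFAS, an enzyme of purine synthesis (2.15 ± 0.17), PRPF8, the core protein of the spliceosome (2.14 ± 0.16), and SKIC2, the helicase of the cytoplasmic exosome's partner complex (2.12 ± 0.14), completed the set. All 12 were also called higher in each of the other 3 conditions.

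Of the 12 deepest depletions, 9 were mitochondrially encoded mRNAs and 3 were nuclear. KIAA2026 fell from 18.2, 18.3 and 19.2 CPM in total RNA to 1.14, 1.87 and 3.78 CPM in polysomes, a difference of −3.07 ± 0.36 (adjusted p = 0.000384). CSGALNACT2, an enzyme of chondroitin sulphate synthesis, fell from 20.4, 20.02 and 18.4 CPM to 1.93, 2.86 and 5.61 CPM (−2.52 ± 0.33). KMT2E, a chromatin protein of the trithorax family, fell from 77.5, 82.1 and 85.4 CPM to 6.70, 11.3 and 26.3 CPM (−2.48 ± 0.42). In all 3 genes polysomal replicate 3 held the highest polysomal value. All 12 depletions were called lower in each of the other 3 conditions too.

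**Figure D1:**
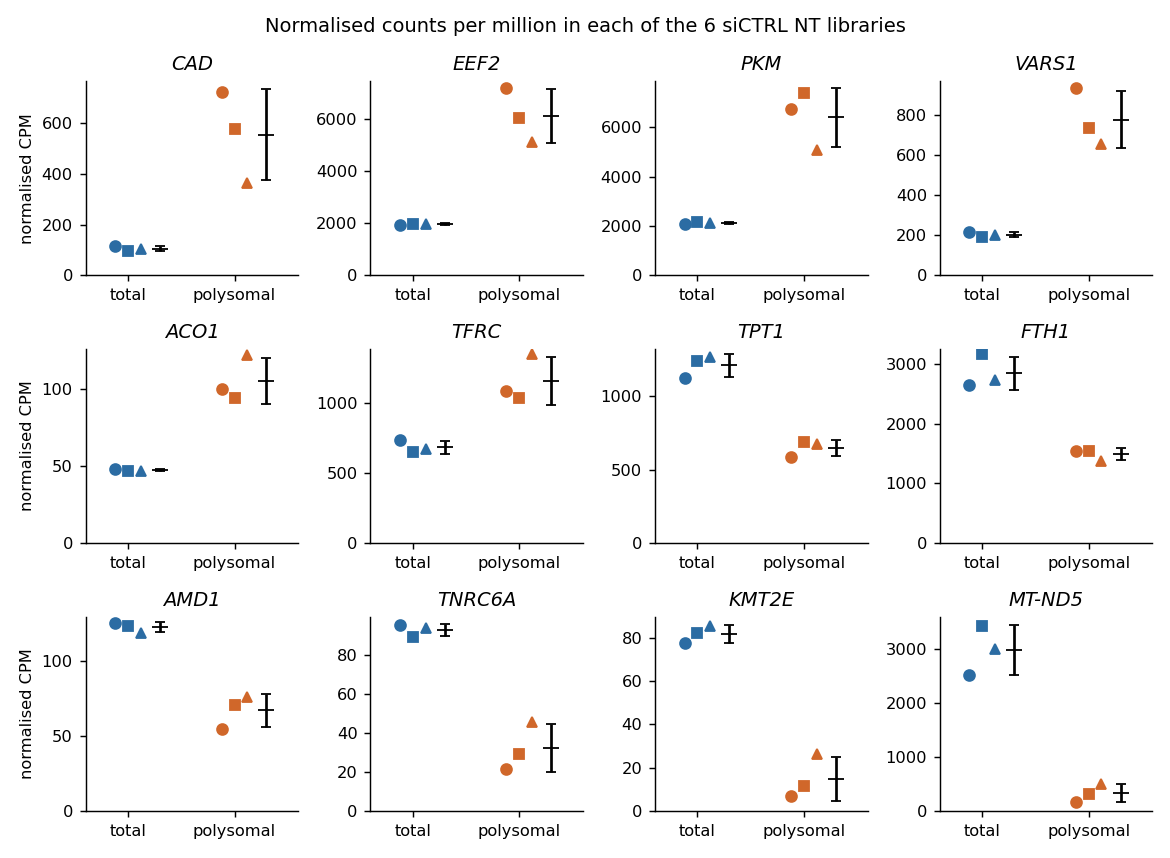
Normalised CPM of 12 genes in the 6 siCTRL NT libraries, on linear axes that start at 0. Circles, squares and triangles are replicates 1, 2 and 3, and the black bars give the mean and SD of each group (n = 3). In each of the 12 genes the 3 polysomal values lie wholly above or wholly below the 3 total values, as they do in 71.7% of all genes tested. For CAD, KMT2E and MT-ND5 this was a condition of their choice and is no finding.

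Mitochondrially encoded mRNAs are translated inside the organelle by mitochondrial ribosomes and are not loaded on the cytosolic polysomes. All 13 were tested and all 13 were lower in the heavy fractions, against 32.3% of all genes. Their differences ran from −3.40 to −2.13 with a median of −2.58, against −0.03 for all genes. They took 7.08, 8.57 and 8.08% of protein-coding counts in the total RNA libraries and 0.70, 1.30 and 1.43% in the polysomal libraries. MT-ND5, a subunit of respiratory complex I, fell from 2524, 3438 and 3004 CPM to 174, 313 and 500 CPM (−3.18 ± 0.35, adjusted p = 0.000347). MT-CO1, the catalytic subunit of cytochrome oxidase, fell from 15117, 18156 and 17468 CPM to 1602, 3180 and 3679 CPM (−2.58 ± 0.29). The largest difference was that of MT-ATP8 (−3.40 ± 0.35), an ATP synthase subunit whose reading frame overlaps that of MT-ATP6 (−2.51 ± 0.30), with 77.8% of its bases in no other gene. Other complex I subunits gave −2.95 ± 0.30 for MT-ND4L, −2.89 ± 0.32 for MT-ND4, −2.61 ± 0.21 for MT-ND1, −2.58 ± 0.35 for MT-ND2, −2.30 ± 0.25 for MT-ND6 and −2.13 ± 0.36 for MT-ND3. MT-CYB, cytochrome b, gave −2.48 ± 0.29, and the oxidase subunits MT-CO2 and MT-CO3 gave −2.23 ± 0.21 and −2.22 ± 0.20. With the GC trend of each library removed, all 13 were again called lower, with a median of −2.26.

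**Figure D2:**
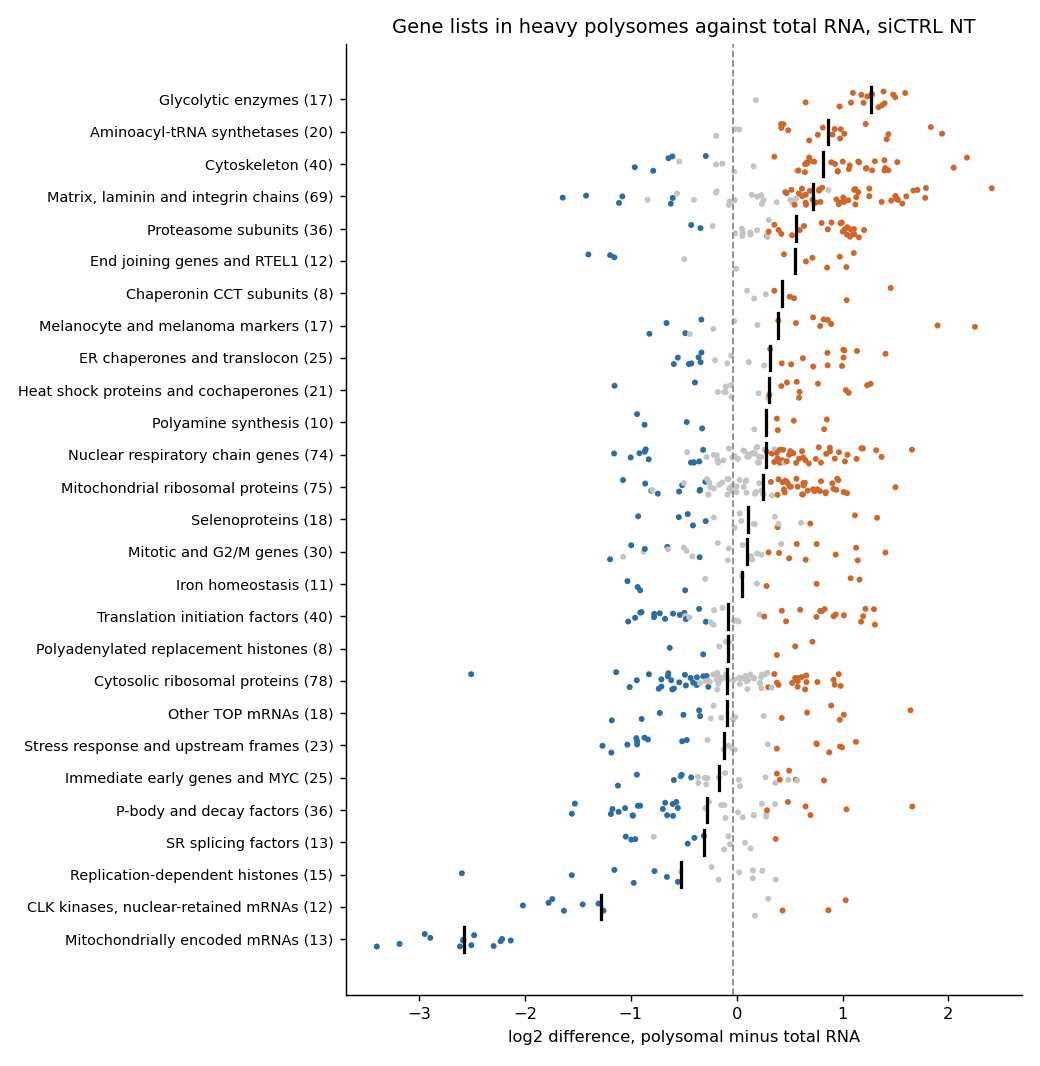
Log2 difference of polysomal over total RNA for the tested members of 27 gene lists in siCTRL NT cells, with the number tested in brackets. Orange points were called higher, blue points lower and grey points neither (adjusted p under 0.05), black bars are list medians and the dashed line is the median of all genes (−0.03); glycolytic enzymes lie at the top (1.27) and mitochondrially encoded mRNAs at the bottom (−2.58).

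The mRNAs of the translation apparatus held members higher and lower in polysomes, in shares that depended on the scaling. Of 78 cytosolic ribosomal protein genes tested, 18 were higher (23.1%, against 31.4% of all genes) and 24 lower (30.8%, against 32.3%), with a median of −0.09. Under library totals alone 10 were higher and 44 lower, with a median of −0.39. The small subunit had 7 higher and 9 lower of 31, and the large subunit 11 higher and 15 lower of 47. Their share of protein-coding counts was 5.90, 6.23 and 6.13% in total RNA and 5.21, 5.66 and 5.13% in polysomes. FAU, which encodes a ubiquitin-like protein fused to a small-subunit protein, rose from 94.6, 93.1 and 99.0 CPM to 174, 209 and 183 CPM (0.98 ± 0.11, adjusted p = 0.000331). RPL26 fell from 26.8, 23.4 and 22.3 CPM to 12.5, 8.79 and 11.6 CPM (−1.14 ± 0.16), and RPL17 was lower by −1.01 ± 0.17. RPL36A was read at 8.23, 1.29 and 2.42 CPM in total RNA and 1.07, 0.29 and 0.66 CPM in polysomes. Its difference of −2.51 ± 0.72 became −1.43 without total RNA replicate 1, and its call was lost without polysomal replicate 2 (adjusted p = 0.0691). Ribosomal protein genes have many near-identical pseudogene copies, so counts such as these are uncertain where reads could be split. The 4 members under 30 CPM in total RNA, a limit set after their values were seen, had a median of −1.07, and the other 74 had 18 higher, 21 lower and a median of 0.00. Without polysomal replicate 3, 30 ribosomal protein genes were higher and 23 lower.

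Other TOP mRNAs had 6 of 18 higher (33.3%, against 31.4% of all genes), 6 lower (33.3%, against 32.3%) and a median of −0.09. After GC correction 10 were higher and 3 lower, with a median of 0.27, and under library totals alone 5 were higher and 10 lower. EEF2, the translocase of elongation, rose from 1924, 1990 and 1976 CPM to 7206, 6037 and 5139 CPM (1.64 ± 0.15, adjusted p = 0.000226). RACK1, a scaffold protein of the small subunit, rose from 985, 1002 and 1001 CPM to 2087, 2307 and 1635 CPM (1.01 ± 0.14). IMPDH2, an enzyme of guanine nucleotide synthesis, was higher by 0.97 ± 0.14. TPT1, the translationally controlled tumour protein, fell from 1122, 1243 and 1266 CPM to 586, 690 and 673 CPM (−0.90 ± 0.11, adjusted p = 0.000463). PABPC1, the poly(A)-binding protein, was lower by −1.18 ± 0.22. The first 20 bases of 5 annotated transcripts (Gencode, GRCh37) are set out to show that mRNAs at both ends of this range open with the same kind of tract, whose unbroken pyrimidines are in capitals.
EEF2 (chr19:3985442-3985461, minus strand, exon 1, higher): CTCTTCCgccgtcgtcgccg
RACK1 (chr5:180670887-180670906, minus strand, exon 1, higher): CTCTCTTTCactgcaaggcg
FAU (chr11:64889587-64889606, minus strand, exon 1, higher): CTCTTTCTCgactccatctt
TPT1 (chr13:45915299-45915318, minus strand, exon 1, lower): CTTTTCCgcccgctcccccc
RPL26 (chr17:8286492-8286511, minus strand, exon 1, lower): CTCTTCCCTTTTgcggccat
Over all protein-coding genes, 884 annotated transcripts (4.63%) began with a C followed by at least 4 pyrimidines. Of the 698 tested, 222 were higher and 221 lower, and their median was −0.02, beside −0.03 for all genes. The number of pyrimidines among the first 8 bases had a Spearman correlation of −0.01 with the difference across 12418 genes. An annotated start is not necessarily the start used in A2058 cells.

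Initiation factors had 16 of 40 higher (40%, against 31.4% of all genes) and 14 lower (35%, against 32.3%), with a median of −0.08. After GC correction 20 were higher and 4 lower, with a median of 0.30. EIF3I, a subunit of the factor that bridges mRNA and the small subunit, rose from 360, 361 and 353 CPM to 869, 1057 and 726 CPM (1.31 ± 0.14). EIF6, which keeps large subunits apart from small ones, and EIF2B4, a subunit of the exchange factor for eIF2, were higher by 1.30 ± 0.14 and 1.22 ± 0.13. EIF4G2, a scaffold protein related to eIF4G, fell from 865, 863 and 869 CPM to 396, 436 and 504 CPM (−0.96 ± 0.11). EIF2A was lower by −0.91 ± 0.15, which was not called with the GC trend removed (−0.17, adjusted p = 0.11). EIF4G3, another eIF4G scaffold, was lower by −1.02 ± 0.31, a call lost without polysomal replicate 2 (adjusted p = 0.0781). Cytosolic aminoacyl-tRNA synthetases, which charge tRNAs with amino acids, leaned one way: 17 of 20 were higher (85%), none was lower, and the median was 0.86. Under library totals alone 12 were higher and 1 lower. VARS1, the valine enzyme, rose from 216, 192 and 199 CPM to 934, 739 and 657 CPM (1.94 ± 0.14, adjusted p = 0.000146). AARS1, the alanine enzyme, and FARSA, a subunit of the phenylalanine enzyme, were higher by 1.83 ± 0.14 and 1.43 ± 0.16. Among those not called were NARS1 (−0.19 ± 0.15) and TARS1 (−0.02 ± 0.18), whose transcripts are 41.7 and 42.8% GC. With the GC trend removed all 20 were called higher, whereas without polysomal replicate 3 NARS1 (−0.37) and TARS1 (−0.24) were called lower.

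Glycolytic enzymes had the highest median of the lists, 1.27. Of 17, 16 were higher (94.1%, against 31.4% of all genes) and none lower (against 32.3%). They took 1.8, 1.79 and 1.78% of protein-coding counts in total RNA and 3.67, 3.98 and 3.03% in polysomes. PKM, pyruvate kinase, rose from 2092, 2173 and 2106 CPM to 6736, 7396 and 5065 CPM (1.59 ± 0.16, adjusted p = 0.000274). ALDOA, aldolase, and ENO1, enolase, were higher by 1.5 ± 0.19 and 1.48 ± 0.15, and 57.2% of the exon bases of ALDOA are free of overlap with same-strand genes. GAPDH, often used as a reference gene, rose from 5144, 4947 and 4998 CPM to 14318, 15503 and 9922 CPM (1.40 ± 0.18). Both lactate dehydrogenase genes lay at the low end of the list, with LDHA at 0.65 ± 0.11 and LDHB at 0.18 ± 0.10, the one not called (adjusted p = 0.132). All 17 were called higher with the GC trend removed, with a median of 0.93.

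Genes of the actin, tubulin, myosin and spectrin cytoskeleton had 29 of 40 higher (72.5%, against 31.4% of all genes). Another 5 were lower (12.5%, against 32.3%), and the median was 0.81, which was 0.37 after GC correction. FLNA, the actin crosslinker filamin A, rose from 812, 613 and 668 CPM to 4100, 2653 and 1910 CPM (2.05 ± 0.26, adjusted p = 0.000505). TUBB4B, a beta tubulin, was higher by 1.52 ± 0.18, and ACTB, beta actin, by 1.06 ± 0.17. TMSB4X, the small actin-sequestering peptide thymosin beta 4, fell from 411, 470 and 464 CPM to 240, 213 and 237 CPM (−0.96 ± 0.10), and MYH10, a nonmuscle myosin heavy chain, was lower by −0.79 ± 0.20. Collagen, laminin and integrin chains and other matrix proteins, which are made on ribosomes at the endoplasmic reticulum, had 45 of 69 higher (65.2%). Another 6 were lower (8.7%), and the median was 0.72. COL5A3, a collagen V chain, rose from 17.8, 16.3 and 16.7 CPM to 77.7, 51.6 and 45.9 CPM (1.79 ± 0.20), and ITGA7, a laminin-binding integrin chain, was higher by 1.78 ± 0.21. ITGB8, an integrin chain that activates latent TGF-beta, fell from 126, 129 and 114 CPM to 21.6, 36.5 and 60.3 CPM (−1.64 ± 0.31), and ITGA4 was lower by −1.11 ± 0.26. Without polysomal replicate 3, 10 matrix genes were lower.

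Proteasome subunits were mostly higher, and chaperone lists held more higher than lower members by a margin that depended on the scaling. Of 36 proteasome subunits tested, 24 were higher (66.7%), 2 were lower and the median was 0.56. Under library totals alone 18 were higher and 3 lower. PSMD2, a scaffold of the regulatory particle, rose from 296, 295 and 300 CPM to 727, 749 and 575 CPM (1.20 ± 0.12, adjusted p = 0.000293), and PSMC4, one of its ATPases, was higher by 1.15 ± 0.12. The 2 lower members were PSMD12 (−0.43 ± 0.14) and PSMC6 (−0.34 ± 0.13), whose transcripts are 37.5 and 36.4% GC. Neither direction held with the GC trend removed (0.42 and 0.61, both called higher). The lower count was 0 to 3 over the fits that each left out one library. PSMC6 was no longer called without any one total library or polysomal replicate 1 or 2, and PSMD12 without any one total library or polysomal replicate 1. The chaperonin CCT, which folds actin and tubulin, had 5 of 8 subunits higher and none lower (2 higher under library totals alone and 8 after GC correction), from 1.45 ± 0.12 for CCT7 and 1.04 ± 0.11 for CCT3 to 0.10 ± 0.10 for TCP1. Heat shock proteins and cochaperones had 11 of 21 higher (52.4%, against 31.4% of all genes) and 2 lower (9.52%, against 32.3%). Their lower count was 1 without total RNA replicate 1 or 2, and 4 without polysomal replicate 3. Under library totals alone 6 were higher and 5 lower, with a median of 0.01. HSP90AB1, a constitutive HSP90, rose from 2246, 2138 and 2154 CPM to 5253, 4223 and 6234 CPM (1.26 ± 0.16), HSPA8, the constitutive HSP70, was higher by 1.23 ± 0.12, and CHORDC1, an HSP90 cochaperone, was lower by −1.15 ± 0.27 (−0.08 with the GC trend removed). Chaperones and translocon subunits of the endoplasmic reticulum had 13 of 25 higher (52%, against 31.4% of all genes) and 7 lower (28%, against 32.3%). HYOU1 was at 1.41 ± 0.12, the channel subunit SEC61A1 at 1.14 ± 0.16 and the small subunit SEC61G at −0.59 ± 0.10. In that list 10 were higher and 9 lower under library totals alone, with a median of 0.02, and 18 were higher and 1 lower after GC correction. The lower count was 1 to 3 when any one total library or polysomal replicate 1 or 2 was left out.

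Nuclear genes for mitochondrial proteins differed in direction from the mRNAs made in mitochondria. Of 74 nuclear-encoded subunits of the respiratory chain and ATP synthase, 35 were higher (47.3%, against 31.4% of all genes). Another 11 were lower (14.9%, against 32.3%), and the median was 0.27. Under library totals alone 21 were higher and 21 lower, with a median of −0.03. UQCRC1, a core subunit of complex III, rose from 281, 271 and 280 CPM to 866, 1087 and 670 CPM (1.66 ± 0.17, adjusted p = 0.000296). NDUFV1, a core subunit of complex I, and ATP5F1B, the catalytic subunit of ATP synthase, were higher by 1.37 ± 0.17 and 1.32 ± 0.13. NDUFA5 and UQCRB, small subunits of complexes I and III, were lower by −1.16 ± 0.25 and −1.0 ± 0.12, and neither was called with the GC trend removed. The lower count was 7 without total RNA replicate 2 or 3. Mitochondrial ribosomal proteins, which are made in the cytosol, had 35 of 75 higher (46.7%) and 9 lower (12%), with a median of 0.25. Under library totals alone 20 were higher and 24 lower, with a median of −0.06. The ends of that list were MRPL28 (1.5 ± 0.16) and MRPL33 (−1.07 ± 0.11). Its lower count was 5 without any one total library and 16 without polysomal replicate 3.

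Several groups of nuclear regulators were depleted. Of 12 CDC2-like kinases and other genes whose intron-containing mRNAs are described as kept in the nucleus, 7 were lower (58.3%, all by more than 1) and 3 higher, with a median of −1.28. PNISR, a protein of nuclear speckles, fell from 129, 69.3 and 66.3 CPM to 12.3, 17.1 and 36.1 CPM (−2.02 ± 0.41, adjusted p = 0.00314), and LUC7L3, a splicing factor, was lower by −1.74 ± 0.37. OGT, the O-GlcNAc transferase, went the other way, from 72.4, 48.4 and 52.0 CPM to 123.3, 109 and 120 CPM (1.03 ± 0.16), as did the kinase CLK3 (0.87 ± 0.13). With the GC trend removed, 6 were lower, 4 higher and the median was −0.50. SR splicing factors had 6 of 13 lower (46.2%, against 32.3% of all genes), with SRSF5 at −1.05 ± 0.13 and SRSF11 at −0.99 ± 0.21. In this list 1 was higher (7.69%, against 31.4%), and none without total RNA replicate 1 or 3 or polysomal replicate 1 or 2. Under library totals alone none of the SR factors was higher and 10 were lower. Their median of −0.31 became 0.16 with the GC trend removed, when 2 were lower and 5 higher. Zinc finger genes with a ZNF symbol, mostly DNA-binding repressors, formed the largest group: 234 of 378 were lower (61.9%), 35 higher, and the median was −0.88. ZNF680 fell from 7.87, 6.84 and 7.82 CPM to 0.63, 1.08 and 1.14 CPM (−3.00 ± 0.23), ZNF300 was lower by −2.82 ± 0.28, and ZNF282 was higher by 1.17 ± 0.13. After GC correction 190 were lower and 11 higher, with a median of −0.55. Without total RNA replicate 1, 23 were higher, and under library totals alone 17 were higher and 272 lower.

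Replication-dependent histone mRNAs end in a stem-loop in place of a poly(A) tail, so poly(A) selection keeps few of them, and 15 of 35 passed the filter on low counts. Of these, 7 were lower (46.7%, against 32.3% of all genes) and none higher, with a median of −0.53. Without polysomal replicate 3 the median was −0.25, with 1 of 17 higher and 7 lower. With the GC trend removed 11 of the 15 were lower, none was higher and the median was −0.75. In siCTRL HU, siLSM14A NT and siLSM14A HU, 3, 2 and 1 of these 15 were higher. H4C16 fell from 2.14, 1.19 and 1.07 CPM to 0.20, 0.38 and 0.11 CPM (−2.60 ± 0.45, adjusted p = 0.00157). H2BC4 was lower by −1.56 ± 0.34, and H2AC20 gave 0.37 ± 0.31. One common form of the histone stem-loop was found in the 3′ UTR of 21 annotated transcripts on the sense strand (0.11% of 19086), of which 7 were tested and 2 were lower.

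Genes of P-bodies, where untranslated mRNAs and their decay factors gather, had 17 of 36 lower (47.2%, against 32.3% of all genes). Another 6 were higher (16.7%, against 31.4%), and the median was −0.28. TNRC6A, the GW182 scaffold of miRNA silencing, fell from 95.1, 89.2 and 93.9 CPM to 21.7, 29.3 and 45.6 CPM (−1.53 ± 0.24, adjusted p = 0.000977), and its paralog TNRC6C was lower by −1.56 ± 0.26. LSM8, of the nuclear LSM ring, was lower by −1.19 ± 0.12 (−0.01 with the GC trend removed). EDC4, the scaffold of mRNA decapping, rose from 49.4, 47.1 and 53.3 CPM to 183, 156 and 134 CPM (1.66 ± 0.14), EDC3 was higher by 1.04 ± 0.16, and PAN2, a deadenylase, by 0.70 ± 0.11. LSM14A, the P-body protein whose knockdown the series studies, fell from 82.7, 86.2 and 87.1 CPM to 33.8, 45.5 and 54.9 CPM (−0.93 ± 0.17). The GC-corrected list had 10 higher, 12 lower and a median of 0.03. Without polysomal replicate 3, 10 were higher.

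Genes known for regulatory upstream reading frames, many of them of the integrated stress response, had 10 of 23 lower (43.5%, against 32.3% of all genes). Another 7 were higher (30.4%, against 31.4%). The median was −0.12 (0.02 without polysomal replicate 3 and −0.28 without polysomal replicate 1). IBTK, MDM2 and CEBPG, each with at least 1 ATG upstream of the coding sequence, were lower by −1.27 ± 0.31, −1.18 ± 0.17 and −1.03 ± 0.19. ASNS, asparagine synthetase, rose from 107, 76.0 and 118 CPM to 233, 167 and 257 CPM (1.13 ± 0.20), although no more than 50.7% of its exon bases are free of such overlap. HSPA5, the chaperone BiP, was higher by 1.00 ± 0.12.

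The 10 genes of polyamine synthesis hold some of the best known upstream frames. AMD1, which makes the aminopropyl donor, fell from 125, 123.2 and 119 CPM to 54.7, 70.4 and 76.0 CPM (−0.87 ± 0.14, adjusted p = 0.000959), and its difference was −0.05 with the GC trend removed. Its 5′ UTR holds one upstream ATG, and the short frame it opens is shown because it is the regulatory element of the gene, with the ATG in capitals.
AMD1 (chr6:111195999-111196019, plus strand, exon 1): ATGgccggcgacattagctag
SAT1, which acetylates polyamines for export, was lower by −0.94 ± 0.13, AZIN1, the antizyme inhibitor, by −0.47 ± 0.11 and SMS, spermine synthase, by −0.33 ± 0.09. ODC1, the rate-limiting decarboxylase, gave 0.38 ± 0.10, and the antizyme OAZ1 gave 0.39 ± 0.12. SRM, spermidine synthase, gave 0.54 ± 0.17, and the oxidases SMOX and PAOX gave 0.83 ± 0.19 and 0.85 ± 0.20. OAZ2 was not called (0.17 ± 0.10). With the GC trend removed 2 of the 10 were called higher and 1 lower, and AZIN1 changed sign (0.36). The calls of ODC1 and OAZ1 were lost without total RNA replicate 1 or 3, that of SMS without total RNA replicate 1 or 2, and that of SRM without any one total library or polysomal replicate 2. OAZ2 was called without polysomal replicate 3. The count of higher members was thus 2 without total RNA replicate 1 or 3. Under library totals alone 2 were higher and 4 lower. Overlap with a same-strand gene left 39.0% of the exon bases of PAOX unshared.

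Iron homeostasis mRNAs had 4 of 11 higher (36.4%, against 31.4% of all genes) and 4 lower (36.4%, against 32.3%), and 6 higher and 3 lower after GC correction. FTH1, the ferritin heavy chain that stores iron, fell from 2652, 3166 and 2732 CPM to 1550, 1543 and 1378 CPM (−0.94 ± 0.12, adjusted p = 0.000508), and was lower by −0.98 with the GC trend removed. FTL, the ferritin light chain, had 2014, 2240 and 2067 CPM in total RNA and 1547, 2197 and 1402 CPM in polysomes, where replicate 2 overlapped the total values (−0.30 ± 0.17, adjusted p = 0.159). It was called lower without polysomal replicate 2 (−0.51) and with the GC trend removed (−0.74). TFRC, the transferrin receptor that takes up iron, rose from 734, 645 and 671 CPM to 1080, 1031 and 1347 CPM (0.75 ± 0.13). One IRE of each of these 3 mRNAs follows, with the CAGTGN loop in capitals between the 5 bases that pair on either side. They are shown because FTH1 and TFRC, which carry the element at opposite ends of the mRNA, differed in direction.
FTH1 5′ UTR (chr11:61735052-61735068, minus strand, exon 1): cttcaaCAGTGCttgga
FTL 5′ UTR (chr19:49468598-49468614, plus strand, exon 1): cttcaaCAGTGTttgga
TFRC 3′ UTR (chr3:195777856-195777872, minus strand, exon 19, one of 4): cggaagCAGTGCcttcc
The search took a C, 5 bases, CAGTGN and 5 bases that pair with the first 5, on the sense strand. It found such a run in a UTR of 140 annotated transcripts (0.73%), of which 111 were tested, 30 were higher and 48 lower. Their median was −0.20, beside −0.03 for all genes, of which 31.4% were higher and 32.3% lower. Among the other members, ACO1, the iron regulatory protein that doubles as an aconitase, rose from 47.9, 46.6 and 46.9 CPM to 99.7, 94.2 and 122 CPM (1.16 ± 0.12), and IREB2, the second iron regulatory protein, was lower by −0.91 ± 0.20 (−0.15, not called, with the GC trend removed). SDHB gave 0.28 ± 0.10 and EPAS1 −0.49 ± 0.13, while CDC14A gave −1.03 ± 0.27 (at its weakest −0.42, in a fit with the GC trend removed). SLC11A2 (0.05 ± 0.12) was not called. The call of EPAS1 was lost without total RNA replicate 3, and that of SDHB without any one total library or polysomal replicate 1 or 2.

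GC content followed the difference more closely than any other transcript feature examined. Across 12418 nuclear genes the Spearman correlation of transcript GC content with the log2 difference was 0.69, and it was 0.73, 0.71 and 0.53 in polysomal replicates 1, 2 and 3 taken alone. The median difference was −0.79 for transcripts under 40% GC, −0.48, −0.14, 0.26 and 0.57 for the classes of 5 points from 40 to 60%, and 0.69 from 60% upward. Of the transcripts under 40% GC, 2.13% were higher and 70.1% lower, and from 60% upward 68.5% were higher and 1.17% lower. GC at the third codon position (0.58) and in the 3′ UTR (0.64) followed the difference as well, and GC of the 5′ UTR less so (0.19). The correlations were across genes, which are not independent replicates, and these features move together. The part of GC content in the gene group differences was not tested. Removing a GC curve from each library took the correlation to 0.01 and left 3739 genes higher (30.1%) and 2954 lower (23.8%). Of the 3907 genes higher without it, 2388 were again higher and 23 became lower. Of the 4020 lower, 2130 were again lower and 180 became higher.

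**Figure D3:**
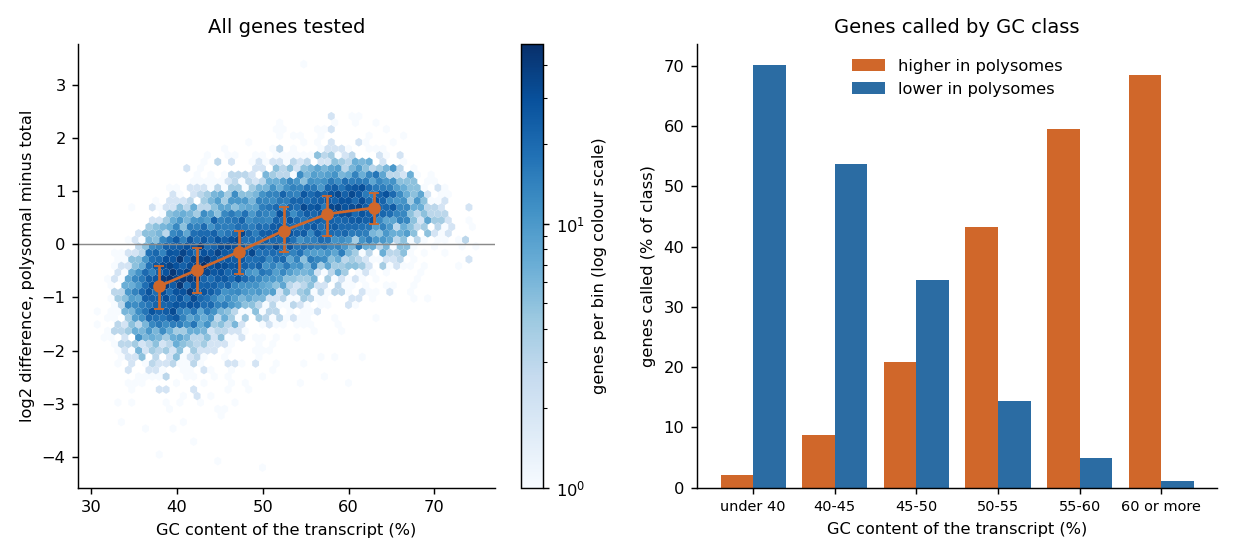
Left, log2 difference against transcript GC content (%) for all genes tested, with the colour giving genes per bin on a log scale and orange points giving the median and quartiles of 6 GC classes. Right, the percentage of each class called higher (orange) or lower (blue) at an adjusted p under 0.05; the share called higher climbs from 2.13% to 68.5% and the share called lower drops from 70.1% to 1.17%.

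The same gradient can be read in the coding sequences of the extreme nuclear genes. The 12 most enriched mRNAs, all nuclear, had 62.0 to 80.3% G or C at the third codon position. The 12 most depleted had 30.8 to 51.6%, but only 3 of them were nuclear. The rest were mitochondrially encoded and were not among the genes of the correlations above. A run of 10 codons from the middle of the coding sequence is printed for the first 3 enriched and the 3 nuclear depleted genes, with the third base of each codon in capitals, taken at the nearest window inside a single exon.
UBA7 (chr3:49847781-49847810, minus strand, exon 13): ttAcaGgtGatCccGctCacCtaCccActG
CAD (chr2:27456617-27456646, plus strand, exon 21): gcAgcAgcCgtCtcCaaAgaGcaTccCgtG
LAMB2 (chr3:49162688-49162717, minus strand, exon 19): cgTgaTcaCacAggGggTgaGcaCtgTgaA
KIAA2026 (chr9:5922810-5922839, minus strand, exon 8): acCtgCcaCacCaaTacAaaAggTccTttA
CSGALNACT2 (chr10:43654315-43654344, plus strand, exon 3): atTaaTatCatTgtGccActTgcTgaAagA
KMT2E (chr7:104747160-104747189, plus strand, exon 20): atAtaTtcAccAgtTacCccAgtAacTccT
In these windows G or C stood at the third base of 8, 6 and 4 of 10 codons in UBA7, CAD and LAMB2, and of 4, 2 and 1 in KIAA2026, CSGALNACT2 and KMT2E. Over the whole coding sequence the values were 65.4, 65.8 and 62.0% against 33.9, 41.4 and 30.8%, so a single window shows the gradient only in part.

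Length and upstream ATGs also moved with the difference. The length of the coding sequence had a correlation of −0.01 with it, although coding sequences up to 500 bases had a median of −0.20 against 0.06 for those of 500 to 1000 bases. The length of the 3′ UTR had a correlation of −0.38, and medians fell from 0.45 for 3′ UTRs up to 250 bases to −0.55 for those over 4000 bases. These 3′ UTR classes differed in GC content, from a median of 56.2% to 42.2%, and with the GC trend removed the correlation was −0.14. In the 5′ UTR the correlation with length was −0.22 and with the number of ATG triplets −0.27, and these became −0.28 and −0.34 with the GC trend removed. Of the 7280 genes with no upstream ATG, 2818 were higher and 1758 lower, with a median of 0.15. Of the 5138 genes with at least 1, 1089 were higher and 2249 lower, with a median of −0.31. The median was −0.16 with 1 upstream ATG, −0.31 with 2, −0.40 with 3 or 4 and −0.69 with 5 or more, and the corresponding values with the GC trend removed were −0.09, −0.20, −0.31 and −0.44. Within each of the 6 GC classes genes with an upstream ATG had the lower median, by the most in transcripts of 40 to 45% GC (−0.77 against −0.31) and by the least in those of 60% and more (0.54 against 0.80). Upstream ATG number and 5′ UTR length rise together, with median lengths of 90 and 255 bases in genes without and with an upstream ATG, and their parts were not told apart.

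**Figure D4:**
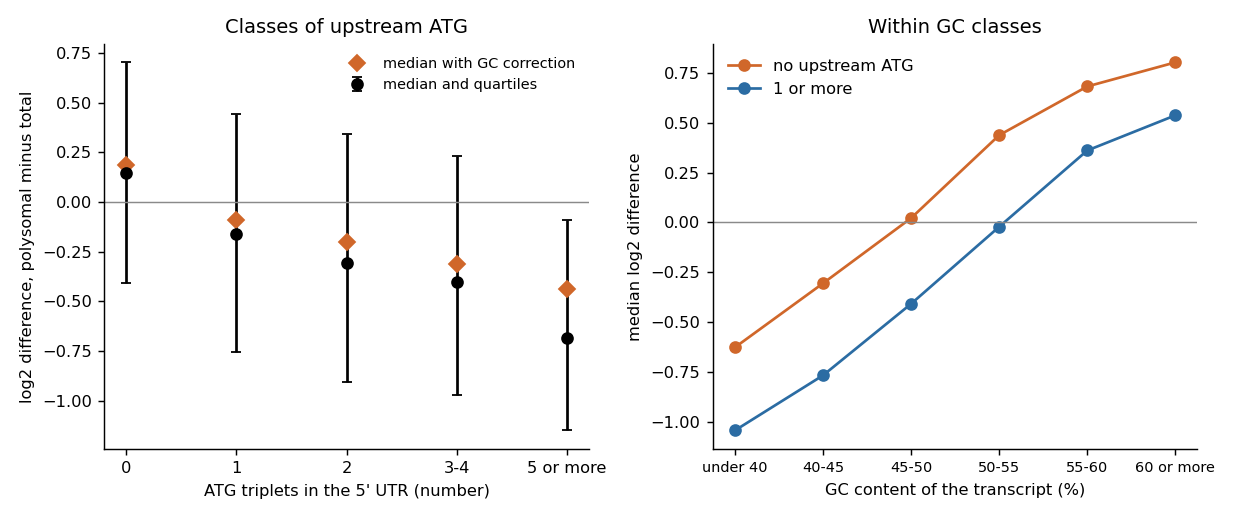
Left, median and quartiles of the log2 difference for genes grouped by the number of ATG triplets in the annotated 5′ UTR, with the GC-corrected median as orange diamonds. Right, medians within 6 classes of transcript GC content (%) for genes with no upstream ATG (orange) and with 1 or more (blue); the medians fall from 0.15 with none to −0.69 with 5 or more, and the blue line lies under the orange line in every GC class.

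The 3 other conditions gave the comparison again with libraries of their own. Genes called higher and lower numbered 4513 and 4661 of 12479 in siCTRL HU (36.2% and 37.4%, 73.5% in all), 4017 and 4050 of 12528 in siLSM14A NT (32.1% and 32.3%, 64.4% in all), and 4057 and 4215 of 12377 in siLSM14A HU (32.8% and 34.1%, 66.8% in all). Differences beyond 1 were called upward for 14, 11.3 and 8.87% of genes and downward for 17.5, 14.1 and 10.5%. Of the genes higher in siCTRL NT and tested there, 95.9, 92.8 and 92.6% were called higher in these 3 conditions, and of the genes lower, 95.4, 89.8 and 90.5% were called lower. No gene was called in opposite directions. Across genes the Spearman correlation with the siCTRL NT difference was 0.97, 0.96 and 0.96. The correlation with GC content was 0.74, 0.68 and 0.67, and that with upstream ATG number −0.26, −0.29 and −0.28. In a model of all 24 libraries, no gene had a difference between fractions that itself differed from siCTRL NT at an adjusted p under 0.05 in the edgeR quasi-likelihood test. At an unadjusted p under 0.05 there were 300, 131 and 135 of 12855 genes in siCTRL HU, siLSM14A NT and siLSM14A HU.

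Mitochondrially encoded mRNAs took 6.85 to 8.88% of protein-coding counts in the 12 total RNA libraries and 0.63 to 1.95% in the 12 polysomal libraries. All 13 were called lower in every condition, with medians of −2.63, −2.53 and −2.41. Glycolytic enzymes took 1.73 to 1.86% of counts in total RNA and 3.03 to 4.13% in polysomes, with medians of 1.49, 1.31 and 1.29. Aminoacyl-tRNA synthetases had medians of 0.84, 0.90 and 0.72, and zinc finger genes −0.97, −0.85 and −0.73. Ribosomal protein genes changed sides: the median was 0.18 in siCTRL HU and 0.24 in siLSM14A NT, where 30 and 32 of 78 were higher, and −0.12 in siLSM14A HU, where 31 were lower. Their share of counts overlapped between the fractions, from 5.46 to 6.32% in total RNA and from 5.08 to 7.20% in polysomes, and this difference between conditions was not tested for the list.

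**Figure D5:**
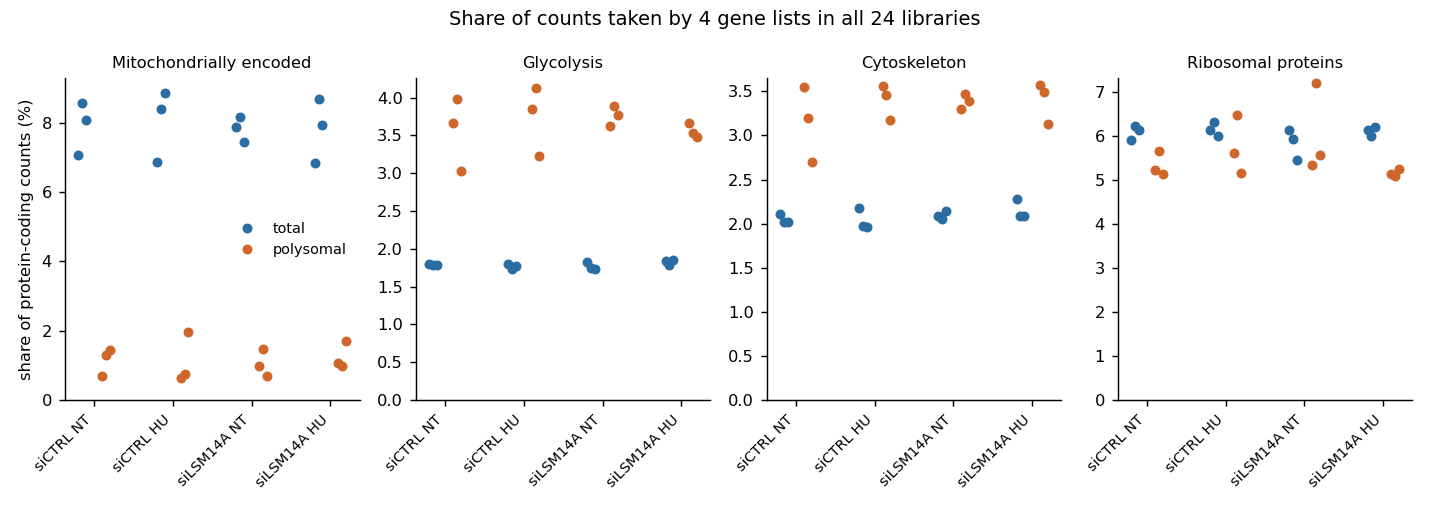
Share of protein-coding counts (%) taken by 4 gene lists in each of the 24 libraries, for total RNA (blue) and polysomal RNA (orange) in the 4 conditions, with 1 point per library. The fractions do not overlap for mitochondrially encoded, glycolytic and cytoskeletal mRNAs, and they overlap for ribosomal protein mRNAs.

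Common reference genes differed as well. GAPDH and ACTB were higher, as given above. PPIA, cyclophilin A, had 2156, 2339 and 2222 CPM in total RNA and 3055, 3032 and 2648 CPM in polysomes (0.38 ± 0.11). TBP, the TATA-binding protein, and B2M, the light chain of MHC class I, were not called (0.21 ± 0.11 and −0.20 ± 0.10). HPRT1, a purine salvage enzyme, had 56.2, 55.2 and 52.1 CPM in total RNA and 42.2, 44.03 and 46.1 CPM in polysomes (−0.31 ± 0.10, adjusted p = 0.0295), and with the GC trend removed it was higher by 0.35. LIG4, the ligase of end joining, fell from 26.4, 22.2 and 25.2 CPM to 4.9985, 8.94 and 19.4 CPM (−1.16 ± 0.40, adjusted p = 0.0335). RTEL1, a helicase of telomere maintenance, was read at under 1 CPM in every library (0.00 ± 0.42), and 47.1% of its exon bases are unshared with same-strand genes. LIG4 was −1.8 without polysomal replicate 3, and its call was lost without any one total library or polysomal replicate 2. Its weakest difference over the 16 alternatives was −0.23, in a fit with the GC trend removed. The call of HPRT1 was lost without any one total library or polysomal replicate 1 or 2, and that of PPIA without any one total library, while TBP was called without polysomal replicate 3.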

How the data were processed

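The deposited table holds raw read counts per gene, whole numbers that the authors made with the Institut Curie RNA-seq pipeline, STAR 2.6.1a and Gencode on hg19. The libraries were stranded, and the strand setting of the counting is not given in the sources used here. Of 20345 gene IDs, 19637 matched Gencode v44 lifted to GRCh37, the same build, of which 19086 were protein-coding, and 708 did not match. These 19086 genes were tested with edgeR 4.0.16 in R 4.3.3: TMM scaling, filterByExpr with a minimum count of 10, quasi-likelihood F-test of polysomal against total RNA over the 6 siCTRL NT libraries, no covariate, Benjamini-Hochberg adjustment, threshold 0.05. Standard errors are the log2 difference over the root of F. GC content, UTRs and upstream ATGs came from 1 transcript per gene (the Ensembl canonical one where marked). The GC correction subtracted a loess curve (span 0.3) of log2 CPM on GC content in each library, as an offset.

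Named genes were the 12 highest and 12 lowest differences among called, non-overlapping genes with a mean of at least 10 CPM, up to 3 highest and 3 lowest members of each list, all members of the mitochondrial, polyamine, iron and reference lists, and genes with a printed sequence. A few of these genes are not reported here. The gene lists and the comparison were chosen with earlier results of these data known. On simulated data for siCTRL NT, with 12331 genes tested, the test recovered 75.6% of changes of 1 on the log2 scale, with 11 false calls. Only 197 of the genes tested were changed there, up or down, while most genes were called in the data. The recovered share therefore need not hold for the comparison itself. DESeq2 1.42.0 and the other settings tried are given at the end.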

Additional observations from a re-analysis of the deposited data

Results flagged for a closer look

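Outside the protein-coding genes, 82 genes annotated as long noncoding RNAs passed the filter when all genes of the table were fitted together, where 31.2% of genes were called higher and 32.1% lower. Of these 82, 5 were higher in polysomes and 32 were lower, with a median of −0.53, and the signal was flagged because the comparisons above did not use it. The table lists only 437 genes of this type, so they need not stand for long noncoding RNAs at large. PAXIP1-AS2 was lower by −2.81 ± 0.48, from a mean of 1.64 CPM to 0.25 CPM. SNHG32, a host of small nucleolar RNAs, was lower by −0.62 ± 0.12, from 79.7 to 52.0 CPM. SLC22A18AS was higher by 0.84 ± 0.13, from 18.2 to 32.7 CPM. These 3 genes were chosen after their values were seen. Reads of an antisense gene and its partner cannot be told apart here, since the strand setting of the counting is not known. No outlier test was made, since each group had 3 libraries.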

How the results depend on the processing

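Over 16 alternatives in siCTRL NT, no gene called higher became called lower or the reverse, except with the GC trend removed, alone or together with the replicate block. Under library totals alone, 2517 genes were higher, 334 were higher by over 1 and 2691 lower by over 1. With GC correction 497 were higher and 594 lower by over 1, and with replicate block and GC correction 484 and 642. The other counts over all genes, also in the other conditions, stayed within 1.5 times. Counts within gene lists moved further, and only some of these moves are given beside them. Under library totals alone immediate early genes, for example, had 1 higher and 11 lower. Leaving out one library gave 3172 to 4568 higher and 3166 to 4748 lower genes. DESeq2 gave 3970 and 3834. Deviations of same-numbered libraries correlated at 0.11, 0.20 and 0.07 and not every library correlated best with its own number, so the numbers were not taken to pair the fractions (replicate block, 3817 higher and 4107 lower). Of 156 named genes, 12 that were called with or without GC correction changed sign under it, with these values there and with the replicate block added: NARS1 0.35 and 0.35, TARS1 0.44 and 0.44, PSMD12 0.42 and 0.42, PSMC6 0.61 and 0.60, SEC61G 0.26 and 0.23, AZIN1 0.36 and 0.35, SRM −0.13 and −0.13, SMS 0.063 and 0.061, SELENOF 0.13 and 0.11, MITF 0.089 and 0.089, HPRT1 0.35 and 0.34, B2M 0.55 and 0.53. H2AC20 (−0.16) and OAZ2 (−0.085), called in neither fit, also changed sign with GC correction. SDHB was −0.021 under library totals alone. The cause was not tested. Genes at a few CPM, such as the histones, rest on few counts.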

Other observations

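Lists not described above gave mixed pictures. Melanocyte lineage and melanoma markers had 9 of 17 higher (52.9%, against 31.4% of all genes) and 4 lower (23.5%, against 32.3%), with a median of 0.39. After GC correction 6 were higher, and the lower count was 0 to 2 without any one total library or polysomal replicate 1 or 2. PMEL, the amyloid protein of melanosomes, was higher by 1.90 ± 0.12 and MCAM, a melanoma adhesion molecule, by 0.89 ± 0.14. DCT, an enzyme of melanin synthesis, gave −0.82 ± 0.23, and MITF, the regulator of the lineage, gave −0.49 ± 0.15. Neither DCT nor MITF was called with the GC trend removed. The call of DCT was lost without polysomal replicate 2, and that of MITF without any one total library or polysomal replicate 1 or 2. Of 5 tested markers of other cell types, 1 was higher and 1 lower. Genes of mitosis and G2/M had 10 of 30 higher (33.3%, against 31.4% of all genes) and 5 lower (16.7%, against 32.3%). Their lower count was 13 without polysomal replicate 3, and 2 or 3 without any other one library. CDC20, the activator of the anaphase complex, was higher by 1.40 ± 0.15 and the kinase PLK1 by 1.14 ± 0.18, and CENPF, a kinetochore protein, was lower by −1.20 ± 0.32. After GC correction 19 of the 30 were higher and 1 lower. End joining genes had 7 of 12 higher (58.3%, against 31.4% of all genes) and 3 lower, with a median of 0.55, and 5 higher and 1 lower after GC correction, with a median of 0.16. PRKDC was at 1.11 ± 0.15, XRCC6 at 0.97 ± 0.09 and DCLRE1C at −1.40 ± 0.28.

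Immediate early genes had 5 of 25 higher (20%, against 31.4% of all genes) and 6 lower (24%, against 32.3%). JUNB was at 0.82 ± 0.18 (at its weakest 0.17, in a fit with the GC trend removed) and KLF6 at −1.12 ± 0.18. In this list 1 was lower without total RNA replicate 2, and 2 or 3 were higher without any one library other than polysomal replicate 3. Selenoproteins had 4 of 18 higher (22.2%) and 5 lower (27.8%), both under the shares of all genes. TXNRD2, the mitochondrial thioredoxin reductase, was at 1.33 ± 0.14, and SELENOF at −0.93 ± 0.11 turned to 0.13, not called, after GC correction. The lower count of selenoproteins was 1 to 3 without any one total library or polysomal replicate 1. Polyadenylated replacement histones had 3 of 8 higher (37.5%) and 2 lower (25%). Of these histones 1 was lower without any one total library or polysomal replicate 2. H1-10 was at 0.71 ± 0.11 and H2AZ2 at −0.63 ± 0.11. At their weakest they were at 0.09 and −0.18, in fits with the GC trend removed.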
